A study of Mus musculus with 12 samples.

Results

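The cerebellum (Cb) and the forebrain/midbrain (F/M) of mice lacking Tpp1 were compared directly with each other, using the 6 libraries of Tpp1-/- mice (Cb-T1 to Cb-T3 and F/M-T1 to F/M-T3) of the 12 libraries of the series. Members were taken by their genotype and tissue labels. All mice were males of 4 months of age, Tpp1-/- homozygotes (T) or wild-type siblings (N), and Tpp1 was disrupted by gene targeting in every cell of the body rather than in a chosen cell type. The question was which glial and immune genes stood at an equal or higher level in the diseased Cb than in the diseased F/M, and which regional genes still separated the tissues. The 6 wild-type libraries (Cb-N and F/M-N, 3 each) served to show how the same areas differed without the disease.

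Tpp1 encodes tripeptidyl peptidase 1, a lysosomal protease whose loss causes late infantile neuronal ceroid lipofuscinosis, with storage material in neurons and a strong reaction of astrocytes and microglia. Microglia, the resident macrophages of the brain, keep a homeostatic set of surface receptors in health and turn on a phagocytic, lipid-handling set, the disease-associated microglia (DAM) genes, near damaged neurons. Astrocytes react by raising intermediate filaments and secreted proteins, and the Cb has a specialized astrocyte, the Bergmann glia. Microglia are known to be sparser in the healthy Cb than in the forebrain.

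Each library held between 22805423 and 24409595 counts in the T groups, so that 3 counts, taken as the smallest detectable level, were 0.121 to 0.131 CPM (read counts scaled to a common library size, the unit of all levels given here), a limit that covers counting error only. Pairs of replicates differed by more than sampling noise (chi-square per degree of freedom of 1.43 to 2.6 in the T groups). By the study's methods, RNA came from both areas of 3 mice per genotype. The labels do not say whether a Cb and an F/M library of the same number come from 1 mouse, and the libraries were treated as independent. Tpp1 mRNA was at 27.98, 31.1 and 30.1 CPM in the Cb-T libraries and 23.9, 21.8 and 23.3 in F/M-T, far below the 87.8 to 94.4 CPM of F/M-N and 112 to 114 CPM of Cb-N.

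Before the areas are compared, 3 marker lists must be set beside the labels, because they moved with genotype within an area (see the plot of summed marker levels). The 18 Hox genes, which mark hindbrain and spinal cord and are silent in the mature Cb, summed to 14.3 to 15.1 CPM in Cb-T but 0.464 to 0.596 CPM in Cb-N, 0.0828 to 0.175 in F/M-T and 0 to 0.169 in F/M-N. The list of 16 brainstem and motor nucleus genes summed to 297 to 304 CPM in Cb-T against 172 to 181 in Cb-N. All 3 Cb-T libraries therefore carried Hox transcripts that the Cb-N libraries held at far lower levels, and a higher brainstem sum. Lbx1 and Tlx3 of the brainstem list were lower on average in Cb-T than in Cb-N. The 10 olfactory bulb genes summed to 20.1 to 20.9 CPM in F/M-T against 52.3 to 52.5 in F/M-N, and their defining members Omp and S100a5 were at 0.328 and 0.0574 CPM in F/M-T against 3.17 and 2.04 in F/M-N. These levels were alike in all 3 libraries of a group, so no library could be left out to remove them, and their part in the comparisons with the wild type was not tested. Whether the dissected tissue was the same in both genotypes was not tested either. Markers of choroid plexus and ependyma summed to 2226 to 2362 CPM in Cb-T and 873 to 918 in F/M-T, and those of blood to 122 to 132 and 85.95 to 96.8; both sums were also higher in Cb-N than in F/M-N.

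**Figure D1:**
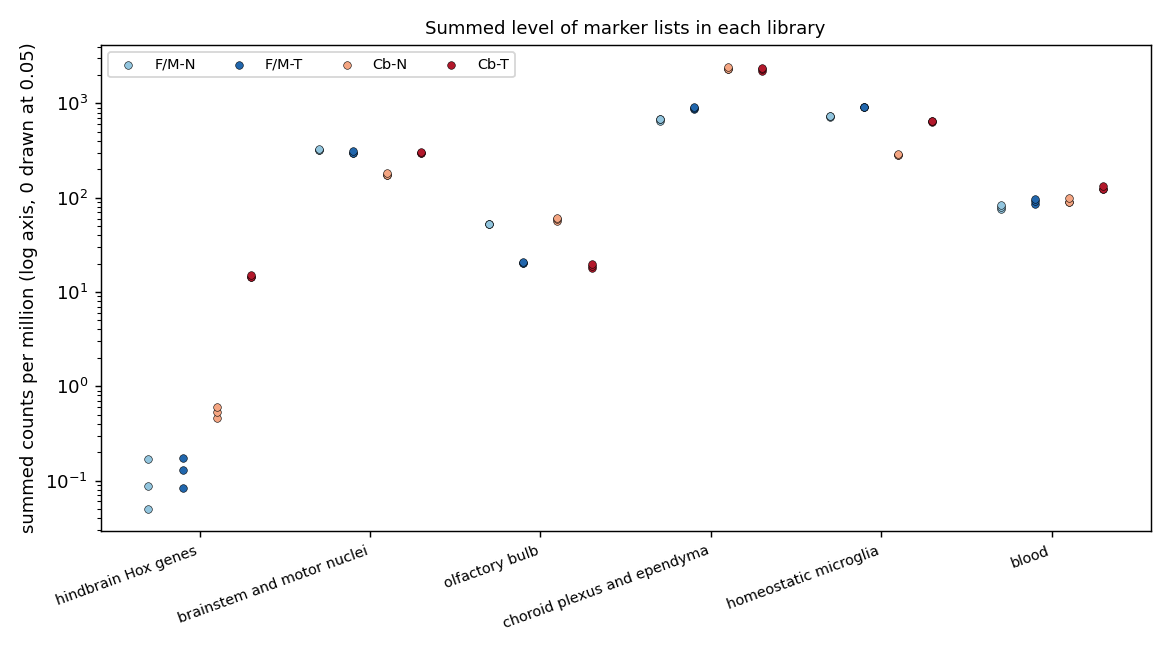
Summed CPM of marker lists in each library (points, 3 per group; log axis, with a library at 0 drawn at 0.05). The Hox sum lies between 14.3 and 15.1 CPM in Cb-T and at no more than 0.596 CPM in any other library, and the olfactory bulb sum is lower in F/M-T than in F/M-N; in Cb most of that sum is Eomes.

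The diseased areas remained 2 very different tissues. Of 16943 genes tested between Cb-T and F/M-T, 5995 (35.4%) were called at a false discovery rate (FDR) below 0.1 with a difference of 1.5-fold or more, in the quasi-likelihood test of edgeR after Benjamini-Hochberg adjustment. Of these, 2726 (16.1% of the genes tested) were higher in Cb-T and 3269 (19.3%) lower. When libraries were scaled to 20 housekeeping genes instead of by TMM, the median log2 fold change of all genes moved from 0.01 to 0.21 and the share of calls that were higher in Cb-T from 45.5% to 61.2%. That scaling used the summed counts of the 20 genes, of which 1, Ywhaz, was itself called lower in Cb-T with TMM. The median of the housekeeping list was -0.11 with TMM and 0.09 under its own scaling. Between the wild-type areas, 7020 of 16725 genes (42%) were called. At least 4-fold differences numbered 1369 in the T comparison and 1832 in the N comparison. The test of the area-by-genotype interaction over all 12 libraries called 1331 of 17482 genes (7.61%). In 1121 of them (6.41%) the area difference was shifted toward Cb in Tpp1-/-, and in 210 (1.2%) toward F/M.

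The extremes over all genes with at least 5 CPM in the higher area were regional. Sycp1, a gene of the meiotic synaptonemal complex, was at 18.8 CPM on average in Cb-T (lowest library 17.6) and had 0 counts in F/M-T, at least 143-fold higher. Crtam, which encodes an adhesion molecule of the immunoglobulin superfamily, was at 96.2, 98.6 and 96.1 CPM in Cb-T and 0.219, 0.0414 and 0 in F/M-T. In the other direction, the long noncoding RNA 9130024F11Rik was at 17.1, 16.6 and 17.3 CPM in F/M-T with 0 counts in Cb-T, at least 134-fold lower there, and the homeobox gene Dlx2 of forebrain interneurons was at 6.92, 5.43 and 5.87 CPM in F/M-T with 0 counts in Cb-T, at least 48-fold lower. Other genes at either extreme (Gabra6, Cbln3 and Pcp2 high, Dlx6 and Fezf2 low) belong to the regional lists described further on.

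Among 326 glial and immune genes in 20 lists, 302 were tested, and 51 were higher and 65 lower in Cb-T (16.9% and 21.5%, against 16.1% and 19.3% of all genes). Under housekeeping scaling the balance turned, with 70 higher and 41 lower. With TMM, a further 129 had a 95% interval of the fold change that lay wholly within 1.5-fold, against 48.9% of all genes tested, and 57 were neither called nor held within that limit. These shares of all genes are the background for every list that follows. In 235 of the 302 the libraries of the areas did not overlap, as in 75.1% of all genes. Their median log2 fold change was -0.05, beside 0.01 over all genes. Between the wild-type areas the same lists looked otherwise, with 33 of 281 tested genes higher in Cb-N (11.7%, against 19.2% of all genes tested), 114 lower (40.6%, against 22.8%) and a median of -0.29. Of those 114 genes, 52 were also lower in Cb-T, 39 had an interval within 1.5-fold there and none was called higher. The interaction test shifted 95 of 303 glial and immune genes toward Cb (31.4%, against 6.41% of all genes) and 11 toward F/M (3.63%, against 1.2%). The hindbrain transcripts of the Cb-T libraries accompany all of these values, and their part in them was not tested. In tissue RNA, fewer cells of a type and less RNA per cell cannot be told apart.

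**Figure D2:**
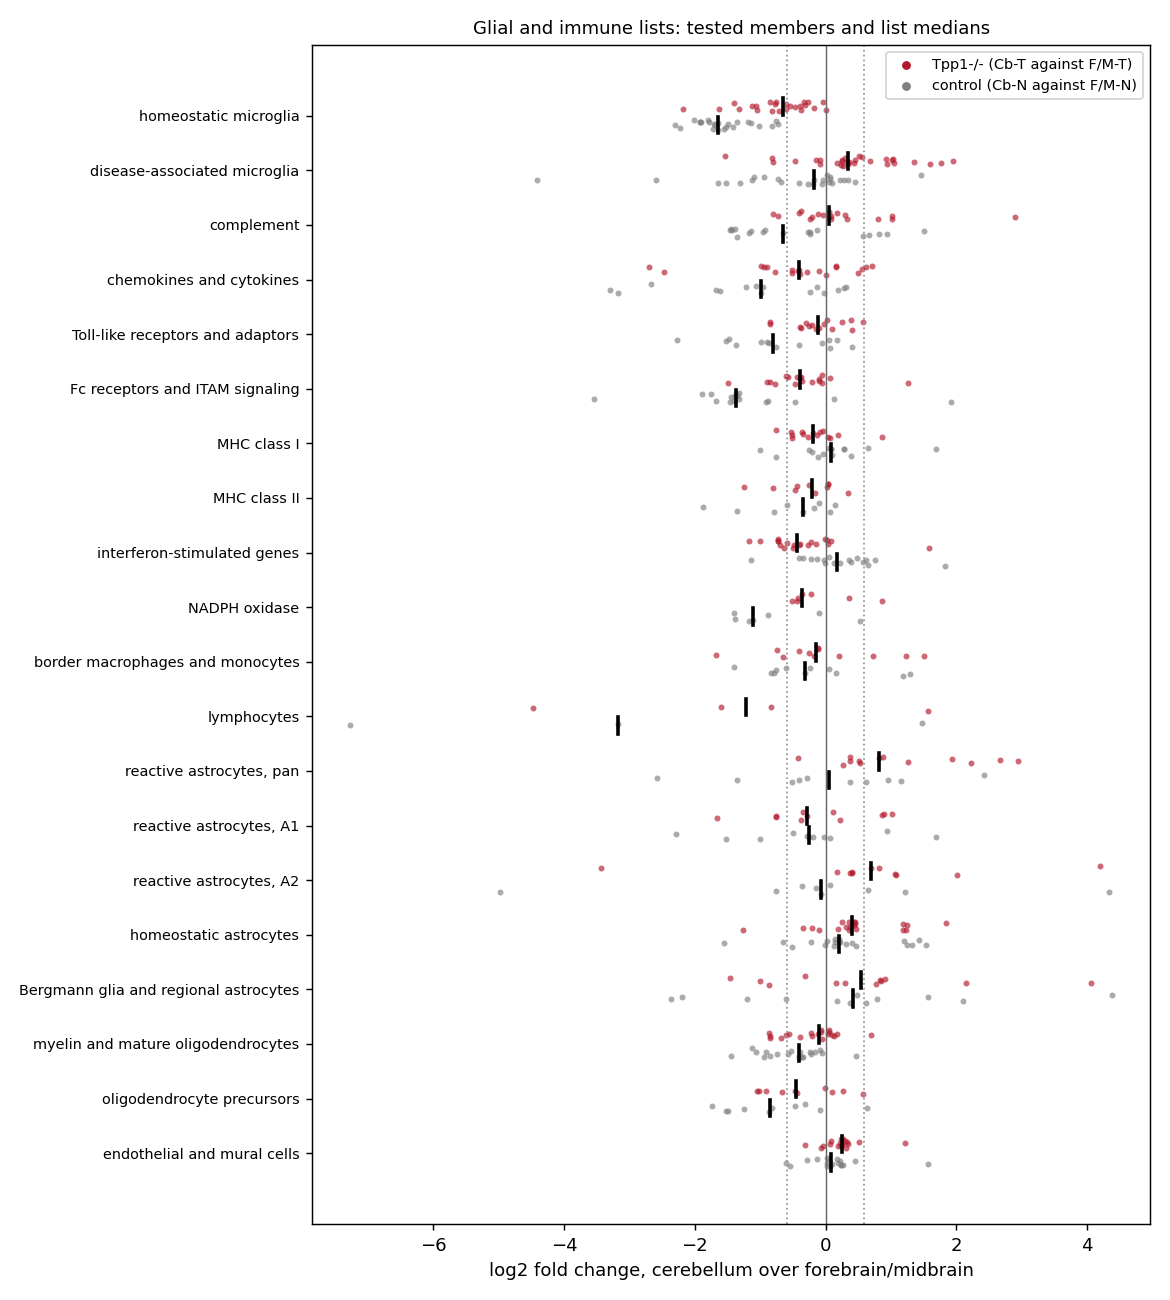
Log2 fold change, Cb over F/M, of each tested member of the 20 glial and immune lists (points) and the list median (black bar), in Tpp1-/- (red) and control (grey) mice; dotted lines mark 1.5-fold. The homeostatic microglia median lies at -0.65 in Tpp1-/- and -1.65 in control mice, whereas the median of the interferon-stimulated genes is -0.44 and 0.17.

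Homeostatic microglial genes stayed lower in the diseased Cb or stood near the F/M level, and none was called higher. All 24 were tested: 14 were lower in Cb-T (58.3%, against 19.3% of all genes), 8 were within 1.5-fold and 2 were neither, with a median log2 fold change of -0.65. All 24 were lower in Cb-N than in F/M-N (22.8% of all genes were; median -1.65), and 19 were shifted toward Cb in Tpp1-/- (79.2%, against 6.41% of all genes). The gap was widest for Slc2a5, a fructose transporter, at 1.22, 0.927 and 1.08 CPM in Cb-T and 4.60, 4.85 and 4.97 in F/M-T, a difference of -2.18 ± 0.17 (SE) on the log2 scale (adjusted p = 9.86e-16). Tmem119, a membrane protein used as a marker of resident microglia, was at 6.88, 7.53 and 7.59 CPM in Cb-T and 22.8, 21.9 and 22.5 in F/M-T (3.09-fold lower, log2 ratio -1.63 with SE 0.07). P2ry12, the purinergic receptor that guides microglial processes to injury, was at 15.7, 16.4 and 16.5 CPM in Cb-T and 41.9, 41.6 and 42.5 in F/M-T (2.63-fold lower). For these 3 genes the Cb-T and F/M-T libraries did not overlap and the shift between genotypes did not pass the interaction test at 1.5-fold (0.06, 0.40 and 0.53 on the log2 scale).

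Other members of the list differed less between the diseased areas than between the wild-type areas. Fcrls, an Fc receptor-like scavenger receptor of microglia, was at 35.6, 35.4 and 36.4 CPM in Cb-T and 35.5, 37.4 and 35.6 in F/M-T, with overlapping libraries and a 95% interval of -0.13 to 0.06 (log2). In the wild type it had been 4.91-fold lower in Cb (3.68, 3.76 and 3.81 CPM in Cb-N against 19.5, 16.4 and 19.2 in F/M-N), and the interaction was 2.27 (standard error 0.10, adjusted p = 1.24e-16). The fractalkine receptor Cx3cr1 stayed 1.52-fold lower in Cb-T (41.4, 42.5 and 41.1 CPM in Cb-T against 62.1, 64.7 and 60.6 in F/M-T), and the wild-type gap was 3.44-fold. Csf1r, the receptor that microglia need to survive, was at 89.2, 96.2 and 99.6 CPM in Cb-T and 134, 140.4 and 134 in F/M-T, a 1.45-fold gap that was under the limit for a call. The list summed to 632 to 651 CPM in Cb-T, between the 283 to 292 of Cb-N and the 908 to 910.5 of F/M-T.

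A group of the DAM genes stood above the F/M level in the diseased Cb. Of 30 genes tested, 10 were higher in Cb-T (33.3%, beside 16.1% of all genes), 3 were lower, 15 were within 1.5-fold and 2 were neither. The median log2 fold change was 0.35, beside -0.18 for the 26 genes tested in the wild type. By the interaction test, 15 of the 30 were shifted toward Cb in Tpp1-/- (50%, against 6.41% of all genes) and none toward F/M. Gpnmb (chromosome 6, 49036546 to 49070929 in GRCm38), a membrane glycoprotein of phagocytes with lysosomal storage, was at 31.4, 34.9 and 30.4 CPM in Cb-T and 9.24, 8.12 and 7.41 in F/M-T, 3.85-fold higher (log2 ratio 1.95 with SE 0.07, adjusted p = 1.71e-27). Spp1, which encodes osteopontin, was at 67.7, 68.97 and 74.3 CPM in Cb-T and 23.3, 23.1 and 22.6 in F/M-T (3.02-fold higher). Lgals3, the galectin that binds damaged lysosomes, was at 11.8, 11.1 and 10.4 CPM in Cb-T and 3.37, 3.89 and 2.31 in F/M-T (3.42-fold higher). Gpnmb and Spp1 were shifted toward Cb by the interaction test (1.62 and 1.16 on the log2 scale), and Lgals3 was not (0.33, adjusted p = 0.546).

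Other DAM genes were also higher in Cb-T, among them Itgax, Clec7a and Cst7, which were almost silent in the wild type. Itgax (chromosome 7, 128129547 to 128150657) encodes the CD11c integrin chain. It was at 11.3, 11.7 and 11.6 CPM in Cb-T and 6.18, 5.88 and 5.74 in F/M-T, 1.92-fold higher (adjusted p = 9.77e-13), against 0.266 to 0.511 CPM in Cb-N and 0.0868 to 0.296 in F/M-N. Clec7a (chromosome 6, 129461591 to 129472779), the dectin-1 receptor, was at 14.4, 14.8 and 14.3 CPM in Cb-T and 7.53, 6.50 and 6.68 in F/M-T (2.07-fold higher), and Cst7, the inhibitor of lysosomal cathepsins cystatin F, at 8.61, 10.2 and 10.4 CPM in Cb-T and 4.56, 4.64 and 4.93 in F/M-T (2.04-fold higher). The area difference of these 3 genes did not pass the interaction test, which for them rests on wild-type levels close to the smallest detectable one. Lyz2, the macrophage lysozyme, was at 47.5, 47.2 and 48.01 CPM in Cb-T and 23.4, 22.6 and 23.6 in F/M-T (2.02-fold higher), whereas the wild-type areas were nearly equal (6.05 and 5.94 CPM on average). The tetraspanin Cd63, the inhibitory receptor Lilrb4a and the cholesterol hydroxylase Ch25h completed the 10, at 1.60-, 1.90- and 2.56-fold.

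The Trem2 receptor complex of the DAM program stood within 1.5-fold between the diseased areas. Trem2, the lipid-sensing receptor, was at 21.1, 21.9 and 21.6 CPM in Cb-T and 22.7, 20.3 and 24.5 in F/M-T, with a 95% interval of -0.21 to 0.04 (log2). Its adaptor Tyrobp was at 28.4, 31.02 and 30.01 CPM in Cb-T and 26.6, 22.7 and 25.1 in F/M-T, with an interval of 0.13 to 0.36. Both had been lower in the wild-type Cb, 3.11-fold and 2.48-fold, and both were shifted toward Cb by 1.57 and 1.57 on the log2 scale. Cd68, a lysosomal protein of phagocytes, followed the same course (interval 0.12 to 0.38, interaction 1.78). The exceptions were Lpl, the lipoprotein lipase, at 21.9, 21.9 and 20.9 CPM in Cb-T and 38.8, 37.1 and 35.7 in F/M-T, Timp2, a metalloproteinase inhibitor, which was 2.89-fold lower in Cb-T, and Lag3, an inhibitory receptor, which was 1.77-fold lower. Lpl also had the largest shift toward Cb of the list (3.63 on the log2 scale), with 1.34 CPM in Cb-N and 28.6 in F/M-N.

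**Figure D3:**
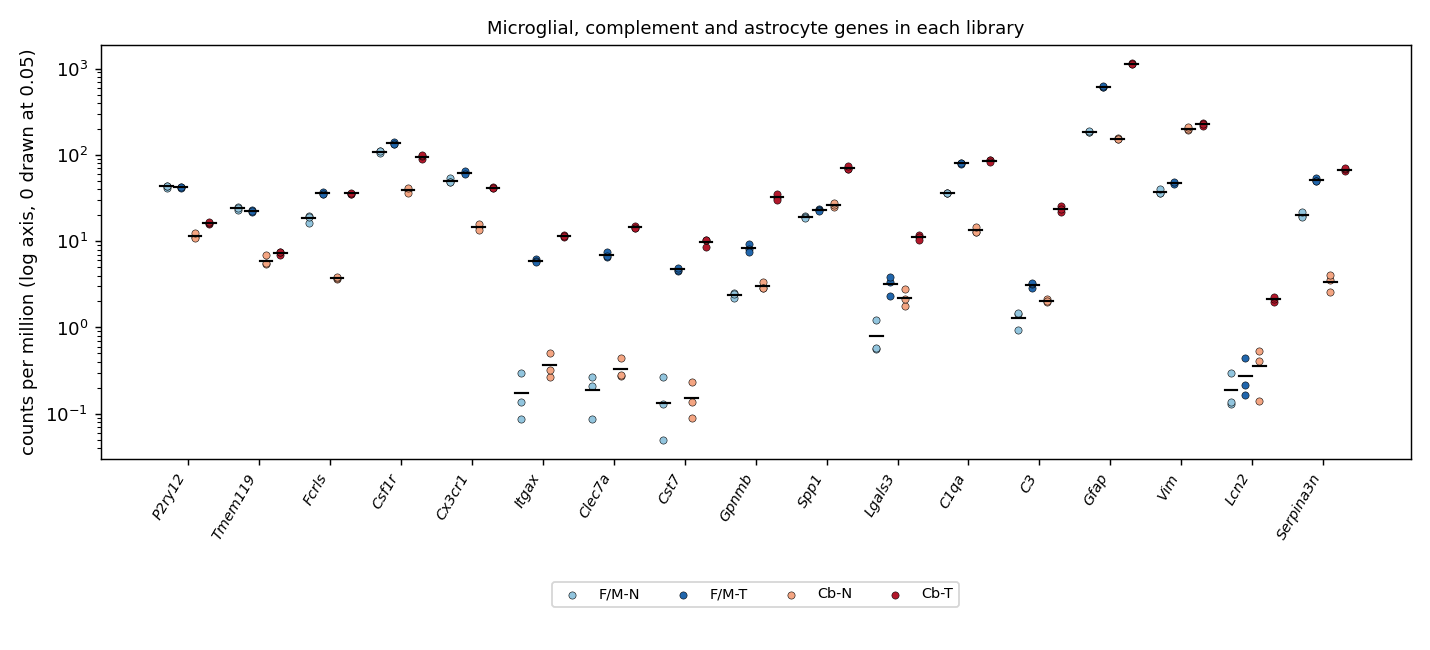
CPM (log axis, with a library at 0 drawn at 0.05) of microglial, complement and astrocyte genes in each library, 3 points per group with the mean as a bar. Tmem119 and P2ry12 stay lower in Cb-T than in F/M-T, C1qa and Fcrls lie near the F/M-T level, and C3, Gpnmb, Gfap and Lcn2 stand above it.

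Complement components ranged from nearly equal to very unequal. Of 19 genes tested, 4 were higher in Cb-T (21.1%) and 2 lower (10.5%), shares near those of all genes (16.1% and 19.3%), and 10 were within 1.5-fold (median log2 fold change 0.06, wild type -0.65). C3 (chromosome 17, 57203970 to 57228136), the component at which all complement pathways meet, was at 21.6, 25.3 and 23.3 CPM in Cb-T and 2.89, 3.15 and 3.26 in F/M-T. It was thus 7.45-fold higher (log2 ratio 2.90 with SE 0.09, adjusted p = 3.63e-30), against 1.58-fold in the wild type, and the interaction was 2.25 (standard error 0.24, adjusted p = 1.52e-08). The chains of the recognition molecule C1q were within 1.5-fold between the diseased areas: C1qa was at 86.8, 87.2 and 82.6 CPM in Cb-T and 80.7, 78.4 and 80.5 in F/M-T, and the intervals were 0.01 to 0.15 for C1qa, -0.12 to 0.03 for C1qb and -0.20 to -0.03 for C1qc (log2). All 3 had been lower in Cb-N, by 2.62- to 2.71-fold. C4b, the next component of the classical pathway, was at 94.8, 102 and 105 CPM in Cb-T and 79.2, 81.98 and 81.4 in F/M-T (interval 0.22 to 0.37). The other genes that were higher in Cb-T were Serping1, the C1 inhibitor (2.02-fold), Cfp, which encodes properdin (2.02-fold), and the membrane inhibitor Cd59a (1.75-fold); the proteases C1ra and C1s1 were lower (1.75- and 1.66-fold).

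Cx3cl1 and Il34, signals that neurons send to microglia, were lower in the diseased Cb. Of 20 chemokine and cytokine genes tested, 2 were higher in Cb-T, 6 lower and 5 within 1.5-fold, beside 16.1%, 19.3% and 48.9% of all genes (median -0.40, wild type -0.98). Cx3cl1, the neuronal ligand fractalkine, was at 95.4, 96.1 and 93.2 CPM in Cb-T and 613, 611 and 609.9 in F/M-T, 6.53-fold lower (log2 ratio -2.71 with SE 0.03). Il34, a ligand of Csf1r made mainly by forebrain neurons, was at 8.10, 8.54 and 7.71 CPM in Cb-T and 45.6, 42.9 and 45.02 in F/M-T (5.55-fold lower). Both were shifted toward Cb relative to the wild type (0.60 and 0.72 on the log2 scale). Csf1, the other Csf1r ligand, which the DAM list holds, was at 41.4, 43.4 and 41.5 CPM in Cb-T and 32.02, 33.3 and 33.1 in F/M-T (interval 0.24 to 0.43). Ccl3 was at 2.79, 2.66 and 2.24 CPM in Cb-T and 1.80, 1.57 and 1.80 in F/M-T, without overlap but under the 1.5-fold limit. The 2 genes called higher were the chemokine receptor Cxcr4 (1.64-fold) and Ccl4 (1.54-fold, adjusted p = 0.0511), whose libraries overlapped. Ccl2, Il1b and Tnf had too few counts to be tested (0.497, 0.222 and 0.194 CPM on average in Cb-T).

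Among 18 Fc receptor and ITAM signaling genes, 1 was higher in Cb-T (5.56%, against 16.1% of all genes), 5 were lower and 7 within 1.5-fold (median -0.39, wild type -1.38). The gene that was higher was the Src-family kinase Lyn, at 25.6, 26.2 and 25.2 CPM in Cb-T and 9.81, 10.8 and 11.2 in F/M-T, and its wild-type difference was larger (3.80-fold, interaction -0.65, adjusted p = 2.66e-05). It was the 1 member shifted toward F/M, and 12 were shifted toward Cb (66.7%, against 6.41% of all genes). The kinase Syk, the phosphatase Inpp5d and the adaptor Blnk were 1.71-, 1.79- and 2.82-fold lower. Of 16 Toll-like receptor genes and adaptors, none was called higher, 2 were lower (12.5%, against 19.3% of all genes) and 6 were within 1.5-fold, with a median of -0.12 that became 0.08 under housekeeping scaling and 0.03 with a mean count of at least 50, and 8 were shifted toward Cb. Of 7 NADPH oxidase genes, the catalytic subunit Cybb was higher (6.88, 6.37 and 5.64 CPM in Cb-T against 3.29, 3.81 and 3.08 in F/M-T), which is 14.3% and near the share of all genes, none was lower and 1 was within 1.5-fold.

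Class I antigen presentation differed in a single classical gene. H2-D1 was at 114, 114 and 111 CPM in Cb-T and 62.8, 61.8 and 58.6 in F/M-T (1.83-fold higher), a smaller difference than the 3.22-fold of the wild type (interaction -0.80, adjusted p = 7.38e-12). H2-K1 and the common light chain B2m were within 1.5-fold, with intervals of -0.22 to -0.04 and -0.15 to -0.02 (log2). H2-T23 was the only one of the 15 class I genes that was lower, 1.69-fold, and the list's median of -0.19 became 0.01 under housekeeping scaling. Of 10 class II genes, none was higher, H2-DMa and H2-Oa were lower and 4 were within 1.5-fold. Reads of near-identical relatives (the H2 genes, C4b and C4a, Ifit3 and Ifit3b) may have been divided between them, since the handling of reads with several alignments is not given in the sources used here.

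Among interferon-stimulated genes, more were lower than higher in the diseased Cb. Cells induce them after interferon receptors activate factors such as Stat2 and Irf9, which bind an element of repeated GAAA units near the gene start. The windows of 160 bases upstream of the annotated start are shown for 5 members whose values follow, 5′ to 3′ on the strand of the gene, from RefSeq on GRCm38.p6. Capitals mark the motif, which is GAAA, any 2 bases and GAAA again, on either strand, so that a copy on the other strand reads TTTC, any 2 bases and TTTC, and overlapping copies run together.
Isg15 (chr4:156200819-156200978, minus strand): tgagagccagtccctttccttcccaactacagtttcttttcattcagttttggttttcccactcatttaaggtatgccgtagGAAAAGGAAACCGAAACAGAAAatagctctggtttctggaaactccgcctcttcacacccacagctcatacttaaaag
Ifit3 (chr19:34583369-34583528, plus strand): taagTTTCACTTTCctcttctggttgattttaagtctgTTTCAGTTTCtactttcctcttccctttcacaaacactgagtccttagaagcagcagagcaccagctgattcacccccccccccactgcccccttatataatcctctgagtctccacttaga
Bst2 (chr8:71537473-71537632, minus strand): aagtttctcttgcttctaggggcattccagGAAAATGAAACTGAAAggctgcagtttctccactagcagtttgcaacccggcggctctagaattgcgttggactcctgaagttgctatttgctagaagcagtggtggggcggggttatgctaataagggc
Irf7 (chr7:141266425-141266584, minus strand): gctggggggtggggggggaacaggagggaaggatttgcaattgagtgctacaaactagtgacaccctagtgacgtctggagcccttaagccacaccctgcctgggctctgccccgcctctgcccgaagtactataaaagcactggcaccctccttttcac
Oasl2 (chr5:114896774-114896933, plus strand): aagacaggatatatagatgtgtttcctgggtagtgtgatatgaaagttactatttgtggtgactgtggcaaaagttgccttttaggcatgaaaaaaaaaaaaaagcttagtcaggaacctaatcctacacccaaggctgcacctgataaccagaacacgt
Of the 20 genes of the list, 15 had an entry, and 6 of them held the motif in this window, as did 1.72% of all 32851 windows. Isg15 held 3 overlapping copies, starting 78 to 66 bases before the start site, and Ifit3 and Bst2 held 2 each, while these letters were not in the windows of Irf7 and Oasl2. The 6 genes were Bst2, Ifit1, Ifit3, Isg15, Oas1a and Rsad2, of which Isg15 was called lower in Cb-T and the others were not called. A match is a description of the sequence, and binding was not measured.

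Of these 20 genes, 8 were lower in Cb-T than in F/M-T (19.3% of all genes were), 1 was higher and 7 were within 1.5-fold, with a median log2 fold change of -0.44. In the wild type, 4 of 18 were higher in Cb, 1 was lower and the median was 0.17. Irf7, the factor that amplifies the interferon response, was at 4.52, 4.19 and 4.97 CPM in Cb-T and 8.19, 6.96 and 7.28 in F/M-T, a difference of -0.73 ± 0.11 (SE) on the log2 scale (adjusted p = 1.22e-07). In the wild type it was higher in Cb (2.53, 2.16 and 2.41 CPM in Cb-N against 1.35, 1.80 and 1.48 in F/M-N), and the interaction was -1.33 (adjusted p = 1.62e-05). Isg15, a ubiquitin-like protein, was at 2.28, 2.50 and 2.11 CPM in Cb-T and 3.94, 5.26 and 4.37 in F/M-T (2.00-fold lower), and Oasl2, an oligoadenylate synthetase-like protein, at 9.50, 9.43 and 12.4 CPM in Cb-T and 17.6, 17.4 and 16.1 in F/M-T (1.66-fold lower). None of the Cb-T libraries reached the F/M-T range for these 3 genes.

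The interaction test shifted 7 members toward F/M and none toward Cb, beside 1.2% and 6.41% of all genes, among them Irf7, Irf9, Ifit3, Oasl2, Usp18 and Bst2. Irf9 was within 1.5-fold between the diseased areas, with an interval of -0.11 to 0.15 (log2), although it was higher in Cb-N than in F/M-N (1.69-fold). Ifit3, which binds viral RNA with its relatives, was at 13.2, 11.5 and 11.8 CPM in Cb-T and 13.5, 15.2 and 14.3 in F/M-T, and Bst2, the tetherin that holds virus particles at the membrane, at 7.26, 5.28 and 6.38 CPM in Cb-T and 9.11, 7.46 and 8.10 in F/M-T. Stat2 was the exception in the list, higher in Cb in both genotypes (3.00-fold in T and 3.53-fold in N).

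**Figure D4:**
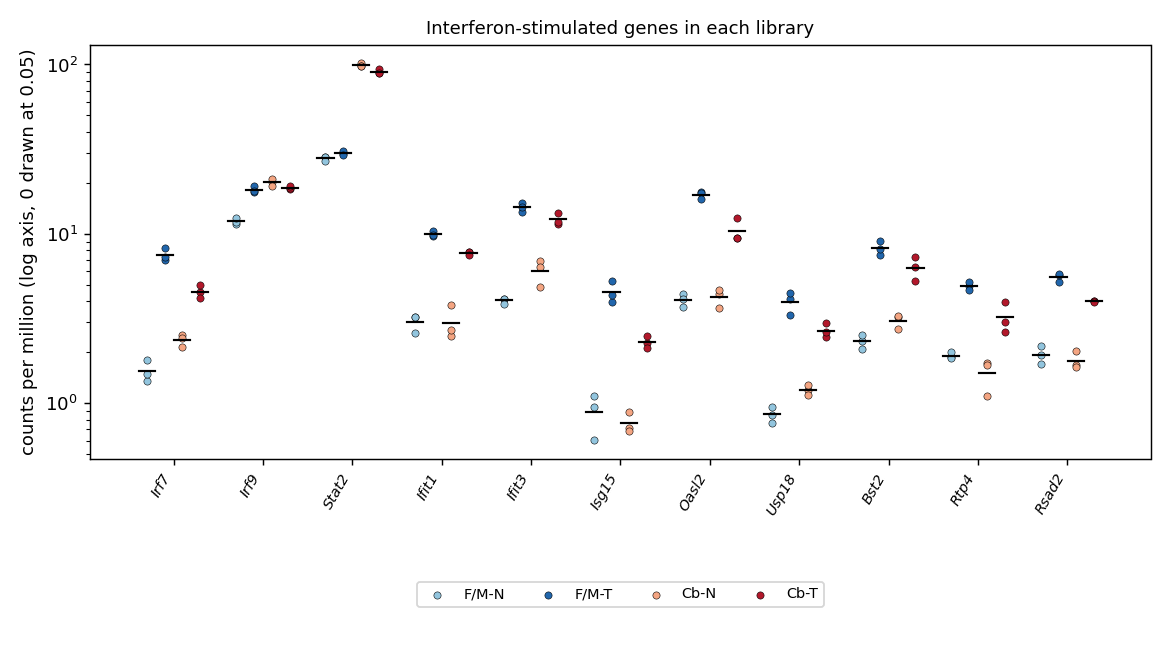
CPM (log axis) of 11 interferon-stimulated genes in each library, 3 points per group with the mean as a bar. Irf7, Isg15 and Oasl2 are lower in Cb-T than in F/M-T, Irf9 is within 1.5-fold, and Stat2 is higher in Cb of both genotypes.

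Among genes of reactive astrocytes, Gfap, Timp1 and Cd44 were higher in the diseased Cb. Of 13 pan-reactive genes, 7 were higher in Cb-T (53.8%, against 16.1% of all genes), none was lower and 3 were within 1.5-fold, with a median log2 fold change of 0.82 against 0.05 for the 10 tested in the wild type, and it was 0.51 with a mean count of at least 50. Gfap (chromosome 11, 102887336 to 102900912), the main intermediate filament of astrocytes, was at 1143, 1146 and 1138 CPM in Cb-T and 614, 604 and 621 in F/M-T, 1.84-fold higher (log2 ratio 0.88 with SE 0.02, adjusted p = 1.36e-33). In the wild type it was slightly lower in Cb (155, 152 and 152 CPM in Cb-N against 184, 184 and 188 in F/M-N). Lcn2, the secreted lipocalin 2, was at 1.98, 2.14 and 2.28 CPM in Cb-T and 0.438, 0.166 and 0.214 in F/M-T (7.66-fold higher). With 10, 4 and 5 counts in F/M-T, Lcn2 passed the count filter only through Cb-T. Its direction was thus set by the filter, and it is counted in the share above. Timp1, a metalloproteinase inhibitor, was at 4.56, 4.07 and 4.44 CPM in Cb-T and 0.788, 0.580 and 0.643 in F/M-T (6.38-fold), and Cd44, the hyaluronan receptor, at 31.2, 31.2 and 32.2 CPM in Cb-T and 8.06, 9.20 and 7.20 in F/M-T (3.81-fold). The area difference of Gfap, Lcn2, Timp1 and Cd44 was shifted toward Cb by 1.17, 2.03, 1.55 and 0.98 on the log2 scale. The shifts of Lcn2 and Timp1 rest on low wild-type levels, which overlapped between the areas (0.533, 0.413 and 0.139 CPM of Lcn2 in Cb-N and 0.130, 0.135 and 0.296 in F/M-N, 0.266, 0.734 and 0.371 CPM of Timp1 in Cb-N and 0.174, 0.270 and 0.169 in F/M-N), and neither gene was tested between the wild-type areas.

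Vim, which encodes vimentin, was at 234, 217 and 225 CPM in Cb-T and 47.5, 45.9 and 48.6 in F/M-T (4.70-fold), and the wild-type difference was 5.36-fold. Serpina3n (chromosome 12, 104406729 to 104414329), a secreted protease inhibitor, was the reverse case: it was 5.95-fold lower in the wild-type Cb but at 65.4, 67.7 and 69.8 CPM in Cb-T and 53.7, 50.1 and 50.4 in F/M-T, within 1.5-fold (interval 0.29 to 0.46, interaction 2.97, adjusted p = 1.27e-18). Of 11 A2 genes, named for a reaction to ischemia, 6 were higher (54.5%) and 1 lower (median 0.70, and 0.41 with a mean count of at least 50). The genes that were higher included B3gnt5, a glycolipid synthase (27.7, 28.3 and 26.7 CPM in Cb-T against 1.23, 1.53 and 1.67 in F/M-T, also 20.2-fold in the wild type), and Tgm1, a transglutaminase (1.60, 1.93 and 2.07 CPM in Cb-T against 0.350, 0.538 and 0.471 in F/M-T, and 0.0604 CPM in Cb-N and 0.0441 in F/M-N, where it was not tested). With 8, 13 and 11 counts in F/M-T, Tgm1 would not have passed the count filter without Cb-T, so the filter favored its direction. Ptgs2, the inducible cyclooxygenase, which forebrain neurons also express, was the A2 gene that was lower (1.60, 1.33 and 1.91 CPM in Cb-T against 16.4, 17.1 and 18.4 in F/M-T). Of 11 A1 genes, named for a reaction to inflammation, 3 were higher and 3 lower (27.3% each way, against 16.1% and 19.3% of all genes), the widest gap being that of Fkbp5, a chaperone induced by glucocorticoids (10.1, 10.96 and 11.03 CPM in Cb-T against 33.6, 32.2 and 34.1 in F/M-T).

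Homeostatic astrocyte genes were within 1.5-fold for 14 of 20 (48.9% of all genes were), with 5 higher and 1 lower in Cb-T (median 0.41, wild type 0.21). None passed the interaction test at 1.5-fold. The water channel Aqp4 was at 925, 907 and 894 CPM in Cb-T and 251, 261 and 239 in F/M-T (3.58-fold higher). The glutamate transporters stood opposite each other, Slc1a3 being 2.34-fold higher and Slc1a2 2.40-fold lower in Cb-T. Several abundant members were within 1.5-fold: Ndrg2 had an interval of 0.31 to 0.40, the matrix protein Sparcl1 of 0.16 to 0.24 and glutamine synthetase (Glul) of -0.39 to -0.29. Among 12 genes of Bergmann glia and other regional astrocytes, 6 were higher and 3 lower, beside 16.1% and 19.3% of all genes. Gdf10, a growth factor of Bergmann glia, was at 117, 121 and 121 CPM in Cb-T and 7.01, 6.79 and 7.37 in F/M-T (16.7-fold higher), and the homeodomain protein gene Hopx was 4.45-fold higher. Slc6a11, a GABA transporter of forebrain and brainstem astrocytes, was lower in Cb-T (212, 203 and 204 CPM in Cb-T against 368, 374 and 363 in F/M-T) but shifted toward Cb by 1.53 on the log2 scale.

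Myelin and vessel genes were mostly even between the areas. Of 20 genes of myelin and mature oligodendrocytes, 13 were within 1.5-fold, 5 were lower and 1 was higher in Cb-T, beside 48.9%, 19.3% and 16.1% of all genes, with a median of -0.10 that became 0.11 under housekeeping scaling. Mbp, the myelin basic protein gene, was at 2786, 2759 and 2759.6 CPM in Cb-T and 2594, 2468 and 2555 in F/M-T. Apoe, the lipid carrier of astrocytes and DAM, and the ferritin heavy chain gene Fth1 were also within 1.5-fold, with intervals of 0.13 to 0.23 and -0.52 to -0.43. Of 10 oligodendrocyte precursor genes, none was higher and 4 were lower (19.3% of all genes were), among them the growth factor receptor Pdgfra (2.07-fold) and Gpr17 (2.03-fold). Of 18 endothelial and mural genes, 16 were within 1.5-fold, again beside 48.9% of all genes, and only the tight junction gene Ocln was called (2.32-fold higher). Of 25 lysosomal enzyme genes, Tpp1 among them, 23 were within 1.5-fold and the cathepsin gene Ctsf was higher (1.52-fold).

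Of 14 genes of border macrophages and monocytes, 12 were tested, and 3 were higher (Ms4a7, S100a8 and S100a9) and 3 lower, none of the 6 above 2.07 CPM on average in either area, with a median of -0.15 that became 0.05 under housekeeping scaling. Of 16 lymphocyte genes, 4 passed the count filter, of which Trac was higher and Cd4, Lck and Il2rb were lower in Cb-T, beside 16.1% and 19.3% of all genes. The list's median log2 fold change was -1.21, and -0.06 without the count filter. With 12, 12 and 4 counts in Cb-T, Cd4 would not have passed the filter without F/M-T, so the filter favored its direction. Cd4 was at 0.506, 0.483 and 0.166 CPM in Cb-T and 9.24, 8.57 and 7.88 in F/M-T, and the kinase gene Lck at 0.802, 0.886 and 0.705 CPM in Cb-T and 2.15, 2.90 and 2.10 in F/M-T, both with the same direction in the wild type. Cd3e and Cd8a averaged 0.0959 and 0.139 CPM in Cb-T and 0.143 and 0.126 in F/M-T, at or near 0.

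Regional genes still separated the diseased tissues. Of 51 tested genes of cerebellar granule cells, Purkinje cells and interneurons, 42 were higher in Cb-T and 6 lower (median log2 fold change 3.38, wild type 3.58). Of 65 tested genes of cortex, hippocampus, striatum, thalamus, hypothalamus and olfactory bulb, 53 were lower in Cb-T and 5 higher (median -3.54, wild type -5.36). These lists were chosen as markers of the areas, so that their direction is a check of the labels rather than a finding. The hindbrain transcripts of the Cb-T libraries also accompany the regional values that follow, shifts between genotypes included. Their part in them was not tested.

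**Figure D5:**
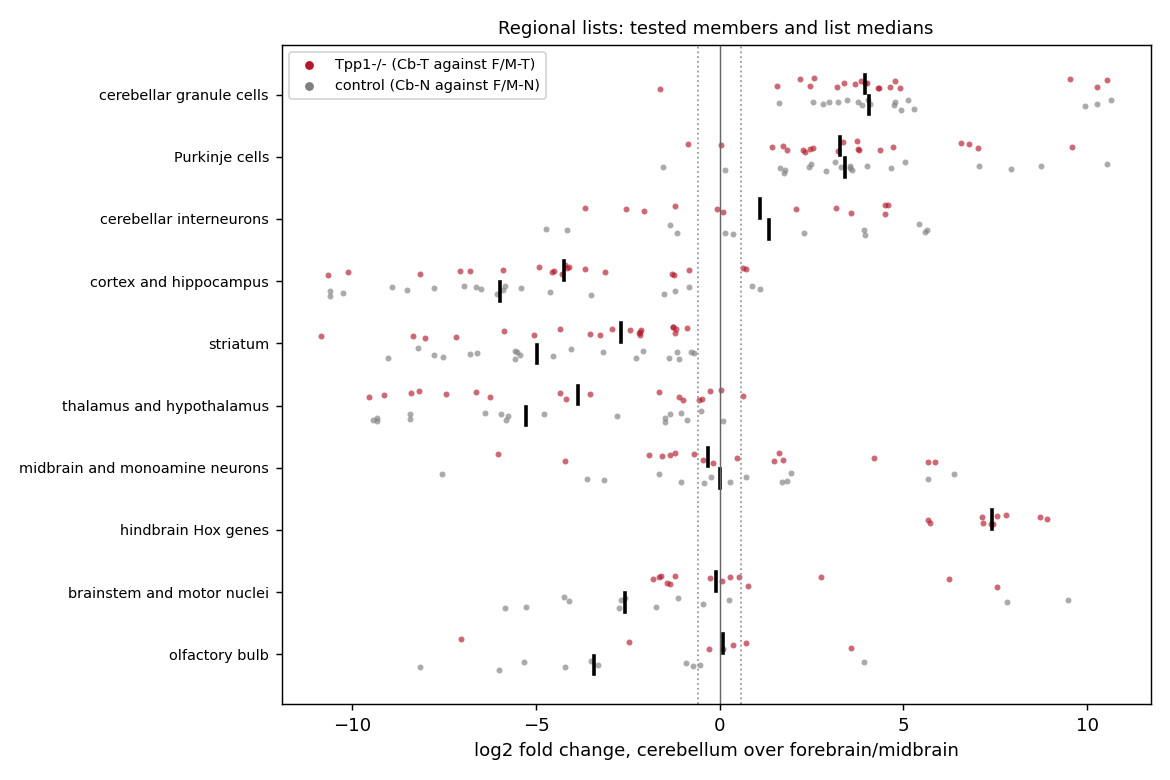
Log2 fold change, Cb over F/M, of each tested member of the 10 regional lists (points) and the list median (black bar), in Tpp1-/- (red) and control (grey) mice; dotted lines mark 1.5-fold. The striatal median lies at -2.68 in Tpp1-/- and -4.99 in control mice, and Hox genes have no control points because none was tested there.

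Among 19 tested granule cell genes, 18 were higher in Cb-T. Gabra6 (chromosome 11, 42306437 to 42321072), the GABA-A receptor subunit of granule cells, was at 654, 637 and 646 CPM in Cb-T and 0.438, 0.414 and 0.428 in F/M-T (log2 ratio 10.53 with SE 0.06). Cbln3, a synaptic organizer of the cerebellin family, was at 1758, 1744 and 1749 CPM in Cb-T and 1.23, 1.49 and 1.46 in F/M-T, and Fat2, a giant cadherin of parallel fibers, at 759, 806 and 752 CPM in Cb-T and 0.876, 1.16 and 1.03 in F/M-T. Gabra6 and Cbln3 had nearly the same area difference in the wild type, and that of Fat2 was smaller in Tpp1-/- (interaction -0.73, adjusted p = 0.0676). The exception was Nhlh1, a gene of immature neurons near the smallest detectable level (0.165 and 0.512 CPM).

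Of 20 Purkinje cell genes, 18 were higher in Cb-T. Pcp2, which encodes a modulator of G protein signaling in Purkinje cells, was at 232, 239 and 237 CPM in Cb-T and 0.307, 0.166 and 0.428 in F/M-T (log2 ratio 9.58 with SE 0.08). Ppp1r17, a phosphatase inhibitor, was at 237, 227 and 233 CPM in Cb-T and 2.02, 2.32 and 1.93 in F/M-T, and its difference was smaller than in the wild type (-1.13, adjusted p = 2.41e-05). Calb1, the calcium buffer calbindin, was at 894, 907 and 918 CPM in Cb-T and 154, 158 and 150.4 in F/M-T (5.80-fold; 7.42-fold in the wild type). Skor2, a corepressor of Purkinje cells, had 3 counts in F/M-T, all of them in F/M-T2, and 460 in Cb-T, a ratio of 148 (95% counting interval 50.5 to 722). The fitted log2 fold change of Skor2 was 7.03, and 10.2 without F/M-T2. Foxp2, which cortex and striatum express, was 1.82-fold lower in Cb-T.

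Of 12 cerebellar interneuron genes, 6 were higher and 4 lower, beside 16.1% and 19.3% of all genes. The glycine transporter Slc6a5 of Golgi cells was at 48.5, 47.2 and 46.9 CPM in Cb-T and 1.80, 2.28 and 2.18 in F/M-T, and the transcription factors Tfap2a and Pax2 were 22.7- and 24.00-fold higher. Slc6a5 and Tfap2a had a smaller area difference than in the wild type (-0.92 and -1.12). Eomes, which marks unipolar brush cells in Cb and projection neurons in the olfactory bulb, was 11.96-fold higher in Cb-T (10.97, 11.8 and 11.6 CPM in Cb-T against 1.10, 0.787 and 0.942 in F/M-T), with 53.3, 52.2 and 54.2 CPM in Cb-N and 3.34, 3.69 and 3.43 in F/M-N.

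Cortical and hippocampal genes were lower in Cb-T for 18 of 20, with Neurod2 and Prox1, which granule cells express, higher (1.64- and 1.54-fold). Fezf2, a factor of deep-layer cortical neurons, had 1 count in Cb-T and 20.5, 20.2 and 22.1 CPM in F/M-T. Ddn, which encodes the dendritic protein dendrin, was at 3.04, 2.66 and 3.07 CPM in Cb-T and 818, 836 and 824 in F/M-T, and its gap was narrower than in the wild type by 2.47 on the log2 scale (adjusted p = 1.94e-12), with 0.621, 0.413 and 0.696 CPM in Cb-N. The list's median was -4.25 in T and -5.98 in N, and 8 of its 20 genes were shifted toward Cb.

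All 20 striatal genes were lower in Cb-T. The homeobox genes Dlx6, Dlx5 and Isl1 had 0, 1 and 1 counts in Cb-T and 9.58, 4.91 and 6.09 CPM in F/M-T. The dopamine receptors differed from each other: Drd1 was at 0.675, 0.927 and 0.705 CPM in Cb-T and 45.2, 45.9 and 44.1 in F/M-T, and Drd2 at 7.05, 7.13 and 6.92 CPM in Cb-T and 31.2, 30.8 and 32.5 in F/M-T. In Cb-N, Drd2 was at 0.621, 0.918 and 0.743 CPM, and its interaction was 3.40. Of 18 tested genes of thalamus and hypothalamus, 13 were lower and Prkcd, which Purkinje cells also express, was higher. The orexin precursor Hcrt, Nkx2-1 and Sim1 had 0 counts in Cb-T and 3.90, 2.93 and 1.75 CPM in F/M-T, at least 30.8-, 23.1- and 13.8-fold lower. Tcf7l2, a factor of thalamic neurons, was within 1.5-fold (36.7 and 35.7 CPM) but lower in Cb-N than in F/M-N (6.45 and 44.9 CPM).

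Midbrain and hindbrain genes did not all lie to 1 side between the areas. Of 16 tested midbrain and monoamine genes, 7 were lower in Cb-T and 6 higher (19.3% and 16.1% of all genes were). Slc6a3, the dopamine transporter of midbrain neurons, was at 0.169, 0.201 and 0.332 CPM in Cb-T and 16.7, 13.8 and 15.98 in F/M-T, and En2, the engrailed factor that patterns midbrain and Cb, at 102, 97.1 and 96.8 CPM in Cb-T and 1.53, 1.95 and 2.23 in F/M-T. Genes of the noradrenergic neurons of the locus coeruleus were high in Cb-T: the transporter Slc6a2 was at 7.89, 8.30 and 9.87 CPM in Cb-T and 0.131, 0.124 and 0.171 in F/M-T, and the enzyme Dbh at 7.72, 7.86 and 8.42 CPM in Cb-T and 0.307, 0.538 and 0.428 in F/M-T. In Cb-N, where both were also called higher than in F/M-N, they were at 1.15, 0.872 and 1.02 CPM and 0.533, 0.688 and 0.743 CPM. Slc6a2 and Dbh were thus higher in Cb-T than in Cb-N, like the Hox sum. Whether the dissected tissue was the same in both genotypes was not tested. Of the 18 Hox genes, 10 passed the count filter, and only through Cb-T, so that their being higher there was fixed by the filter. Hoxb5 was at 3.21, 2.34 and 2.07 CPM, Hoxa5 at 2.62, 1.49 and 2.61 CPM and Hoxa4 at 1.05, 1.13 and 1.29 CPM in Cb-T, and with 0 counts in F/M-T they were at least 19.3-, 17- and 8.8-fold higher. With the 8 Hox genes that had no count in F/M-T set at such bounds, the median log2 fold change of the list was 3.02, and the fitted median of 7.41 depends on the prior count.

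The 14 tested brainstem and motor nucleus genes had a median log2 fold change of -0.11, which became 0.09 under housekeeping scaling, 0.05 without the count filter and -0.82 with a mean count of at least 50, against -2.59 in the wild type. Of these, 4 were higher and 6 lower in Cb-T (16.1% and 19.3% of all genes were), and 9 were shifted toward Cb (6.41% of all genes were). Slc17a6, the vesicular glutamate transporter of thalamus, midbrain and brainstem, was at 103, 101 and 103 CPM in Cb-T and 122, 126 and 119 in F/M-T, but at 20.95, 20.1 and 22.5 CPM in Cb-N. The glycine receptor gene Glra1 was at 7.26, 5.40 and 5.89 CPM in Cb-T and 3.33, 4.39 and 3.00 in F/M-T (interaction 2.51), and Glra3 at 8.02, 6.73 and 8.17 CPM in Cb-T and 25.1, 27.9 and 26.6 in F/M-T (interaction 2.45). Lbx1 and Tlx3, factors of dorsal hindbrain neurons, were higher in Cb of both genotypes (3.68 and 2.59 CPM in Cb-T, with 1 and 2 counts in F/M-T). In Cb-N they were at 4.50 and 3.97 CPM on average. Of 7 tested olfactory bulb genes, 2 were higher and 2 lower in Cb-T. Cdhr1, a cadherin of mitral cells, was at 2.19, 2.58 and 2.28 CPM in Cb-T and 13.3, 12.5 and 12.9 in F/M-T, with 27.99, 28.8 and 26.5 CPM in F/M-N, and Sp8 had 1 count in Cb-T and 2.06, 2.73 and 2.57 CPM in F/M-T.

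Neuronal activity genes separated the areas as well. Of 15 immediate early genes, none was higher and 12 were lower in Cb-T, beside 16.1% and 19.3% of all genes (median -1.68, wild type -1.98). Arc, which acts at activated synapses, was at 28.6, 32.1 and 28.6 CPM in Cb-T and 211, 208 and 215 in F/M-T, and the factor Egr3 at 3.46, 2.62 and 2.90 CPM in Cb-T and 119, 118 and 119.6 in F/M-T. Nr4a3, a nuclear receptor, was lower in Cb-T (16.1, 17.3 and 15.3 CPM in Cb-T against 32.3, 31.9 and 30.6 in F/M-T) but had no called difference in the wild type (91.3, 96.2 and 93.9 CPM in Cb-N against 77.04, 77.6 and 79.04 in F/M-N), an interaction of -1.23 (adjusted p = 3.32e-15). Of 16 clock genes, 12 were within 1.5-fold, Cry1 and Nr1d2 were higher (2.45- and 1.58-fold) and Npas2 was lower (7.03-fold).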

How the data were processed

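Total RNA of Cb and F/M was extracted with TRIzol and RNeasy columns with DNase digestion, and Illumina TruSeq stranded mRNA libraries were sequenced as single-end reads. The authors aligned reads with STAR (2.5.1b in the submitters' processing notes) to GRCm38 and deposited raw read counts per gene made with featureCounts (Rsubread 1.26.1). Strand setting, handling of multiply aligned reads and annotation release are not given in the sources used here. Genes were filtered with filterByExpr (minimum count 10, minimum total 15), scaled by TMM and tested with edgeR 4.0.16 (R 4.3.3) by the quasi-likelihood test, for Cb-T against F/M-T, for Cb-N against F/M-N, and for the interaction over 12 libraries. Calls needed a Benjamini-Hochberg FDR below 0.1 over all genes tested and 1.5-fold. Within 1.5-fold means that the 95% interval lay inside that range. CPM used TMM factors of all 12 libraries. DESeq2 1.42.0, limma 3.58.1 (voom), other scalings, filters, limits and leaving out each library were alternatives, and scripts were tested on simulated data.

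Members and lists were chosen with earlier results of these data known. Named genes were those with the largest differences, those most abundant within 1.5-fold, the most different members of each regional list, the extremes of all genes, and any other list member. The extremes of all genes had a minimum level of 5 CPM in the higher area. A part of the rule for glial genes called lower in Cb-N and higher in Cb-T found 0 genes. Some genes that the rule or the lists hold are not reported here. Gene positions are from GENCODE vM21 on GRCm38.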

Additional observations from a re-analysis of the deposited data

Results flagged for a closer look

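The area difference itself differed between genotypes for 1121 genes shifted toward Cb in Tpp1-/- and 210 shifted toward F/M, by edgeR's test of the interaction. Among 59 genes chosen by the rule for named genes, 14 were shifted toward Cb, beside 6.41% of all genes toward Cb and 1.2% toward F/M. Most of the 59 were chosen for the size of their Tpp1-/- area difference, which enters the interaction, so the count is a description. The 14 were Lcn2 by 2.03 on the log2 scale, C3 by 2.25, Timp1 by 1.55, Gpnmb by 1.62, Cd44 by 0.98, Cd4 by 2.82, Ptgs2 by 1.56, Cx3cl1 by 0.60, Il34 by 0.72, Fkbp5 by 0.65 and Lck by 1.60 among glial and immune genes, and Ddn by 2.47, Glra3 by 2.45 and Cdhr1 by 3.56 among regional genes. Cdhr1 had 27.99, 28.8 and 26.5 CPM in F/M-N and 13.3, 12.5 and 12.9 in F/M-T, and 0.311, 0.459 and 0.511 CPM in Cb-N and 2.19, 2.58 and 2.28 in Cb-T, so that it was lower in F/M-T and higher in Cb-T than in the wild type. Toward F/M, 7 were shifted: Fat2 by -0.73, Ppp1r17 by -1.13, Tfap2a by -1.12, Slc6a5 by -0.92, Isl1 by -2.79, En2 by -0.68 and 9130024F11Rik by -3.94. The shifts of Isl1 and 9130024F11Rik rest on 1 and 0 counts in Cb-T and depend on the prior count of the fit. That of Cd4 rests on 0.0444, 0 and 0.0928 CPM in Cb-N, at or under the smallest detectable level. That of Lck rests on 0.0888, 0.367 and 0.186 CPM in Cb-N, and those of Lcn2 and Timp1 on wild-type levels below 1 CPM.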

How the results depend on the processing

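Each of 59 genes named by rule kept its direction and its call under the alternatives that could be fitted (47 genes with a mean count of at least 50), except that with no fold limit 6 genes within 1.5-fold passed the FDR: Mbp, Sparcl1, Apoe, Ndrg2, Glul and Fth1. Leaving out any one library gave 2750 to 2797 genes higher and 3307 to 3417 lower in Cb-T, and 52 to 54 higher and 61 to 64 lower among glial and immune genes. Genes whose few counts in 1 area lay all or mostly in 1 library had a larger fitted log2 fold change without that library: Skor2 (10.2 without F/M-T2), Crtam (11.8 without F/M-T1), Lbx1 (9.45 without F/M-T3), Fezf2 (-11.97 without Cb-T1), Isl1 (-10.19 without Cb-T1), Sp8 (-8.88 without Cb-T1) and Dlx5 (-9.88 without Cb-T3). The replicate numbers of the labels showed no pairing of the Tpp1-/- libraries (correlations of deviations of -0.000345, 0.0286 and 0.0113). In the wild type these correlations were 0.0106, 0.0292 and 0.101. With the replicate block there were 2711 genes higher in Cb-T than F/M-T and 3261 genes lower in Cb-T than F/M-T. Scaling to housekeeping genes turned the balance of glial and immune genes, with 70 higher and 41 lower in Cb-T, and gave 4839 genes higher in Cb-N than F/M-N, and it turned the medians of Toll-like receptors (0.0819), MHC class I (0.0073), border macrophages (0.0523), myelin (0.11), brainstem (0.0884) and the housekeeping list (0.0945) positive. Without the count filter the medians of brainstem (0.0527) and olfactory bulb (-0.17) changed sign, with a mean count of at least 50 that of Toll-like receptors did (0.0318), and with all 12 libraries in 1 fit that of olfactory bulb (-0.15), which was also negative without F/M-T replicate 3 (-0.0516) or Cb-T replicate 3 (-0.0072) and lay between -0.0516 and 0.22 when 1 library was left out. Without 1 library the median of Toll-like receptors lay between -0.187 and -0.0408, that of MHC class I between -0.299 and -0.147 and that of border macrophages between -0.224 and -0.104. With a mean count of at least 50 the medians of olfactory bulb and brainstem were 0.55 and -0.82. Among medians that kept their sign, housekeeping scaling gave -0.20 for chemokines and cytokines, -0.18 for Fc receptors and -0.24 for interferon-stimulated genes. It gave 0.26 for complement and 0.55 for DAM genes. Of the list medians under all alternatives, 479 moved by less than the spread between replicates, 78 by more and 12 changed sign. With no fold limit, 6661 genes were higher and 6443 lower in Cb-T, 115 and 124 among glial and immune genes, 6745 and 6714 in Cb-N, and 3046 and 1770 genes were shifted toward Cb and F/M. A test against 1.5-fold itself (glmTreat) kept 453 and 21 shifts, and a mean count of at least 50 gave 726 toward Cb. The count of glial and immune genes held within 1.5-fold was 129, with 53 inside a narrower limit and 217 inside 2-fold. The causes of these changes were not tested beyond the construction of each setting. Depth limits genes near 0.121 to 0.131 CPM, such as most lymphocyte genes and, in F/M-T, the Hox genes.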

Other observations

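The C1q-domain family joins the complement chains to secreted synaptic organizers of neurons. Of 10 genes tested, Cbln1 and Cbln3 were higher in Cb-T and Cbln2, Cbln4, C1ql2 and C1ql3 lower (beside 16.1% and 19.3% of all genes), while C1qa, C1qb and C1qc were within 1.5-fold. Cbln1, which granule cells release onto Purkinje cells, was at 635, 606 and 608 CPM in Cb-T and 22.03, 19.3 and 19.9 in F/M-T. C1ql3, which is made by forebrain neurons, was at 8.06, 7.33 and 7.30 CPM in Cb-T and 75.2, 71.5 and 71.2 in F/M-T. Of 20 genes that neurons of both areas express, none was higher in Cb-T, 9 were lower and 11 were within 1.5-fold (beside 16.1%, 19.3% and 48.9% of all genes), among them Snap25, a protein of synaptic vesicle fusion, at 2454, 2346 and 2381 CPM in Cb-T and 2388, 2359.6 and 2422 in F/M-T. Of 20 housekeeping genes, 18 were within 1.5-fold and Ywhaz, which encodes a 14-3-3 protein, was lower (1.97-fold).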
